A study of Oryza sativa Japonica Group with 8 samples.

Results

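Retrotransposon genes were the loci whose description in the deposited gene tables contains the word retrotransposon. There were 117 such loci among the 1174 genes that the authors listed as changed between dcl3b knockdown and wild type rice, 104 listed as higher and 13 listed as lower in the knockdown. The description alone chose them within those lists, but the lists themselves were made from the same mRNA values, so levels and directions are given here as a description, and a retrotransposon gene outside the lists was not analysed here.

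Panicles of japonica rice (Oryza sativa) from paddy-grown plants were compared between genotypes, as young panicles taken before heading. The dcl3b knockdown group had 3 mRNA libraries and 1 small RNA library, and the wild type group likewise had 3 and 1. The knockdown is called a mutant in the labels, which do not say how expression was lowered, how many lines were used, or whether each library is a plant of its own, so p-values measure only the spread between these libraries, which may be technical. Both groups carry no other named allele or treatment.

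Retrotransposons copy themselves through an RNA intermediate that is reverse transcribed and inserted elsewhere in the genome. Ty1-copia and Ty3-gypsy elements are flanked by long terminal repeats and differ in the order of their enzyme domains, whereas LINE elements lack such repeats. Plants hold most copies silent, and Dicer-like enzymes of the DCL3 type cut double-stranded RNA into the 24-nt small interfering RNAs (siRNAs) that guide DNA methylation to such repeats. In rice, OsDCL3b is known for making phased 24-nt siRNAs in the panicle.

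The targeted gene, LOC_Os10g34430 (described as Dicer), was at 0.39, 0.50 and 0.44 FPKM in the knockdown libraries, against 0.97, 0.98 and 0.88 FPKM in the wild type libraries. FPKM is a level scaled by gene length and by library size, and how deeply the mRNA was sequenced is unknown. Of 26 genes of the small RNA and DNA methylation machinery, picked by locus ID from general knowledge and not checked against a gene table, this was the 1 member in the authors' lists; the other 25 were not listed. Knockdown replicate 2 stood apart in 10 tapetum and anther genes, which were picked among genes listed as lower. They summed to 538, 1174 and 765 FPKM in knockdown replicates 1, 2 and 3, against 1806, 2048 and 1852 FPKM in wild type. Their lower sums in the knockdown follow from that choice, and only the difference among the knockdown libraries is of use here. The panicle is a mixture of tissues, and fewer cells of a type and less RNA per cell cannot be told apart in it. Since only changed genes were held, the defining markers of the panicle were not checked.

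Most of the listed retrotransposon genes were higher in the knockdown, from a wild type level at or near 0. They made up 16.1% of all genes listed as higher and 2.45% of those listed as lower. Of the 117, 104 (88.9%) were listed as higher, beside 54.9% of all listed genes, and 13 were listed as lower, beside 45.1% of all listed genes. DNA transposon genes, the class that moves without an RNA copy, had 33 of 38 (86.8%) listed as higher. These shares were not tested, since a gene near 0 in wild type can be called higher but hardly lower.

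Summed over the 104 genes listed as higher, the level was 152, 141 and 155 FPKM in the knockdown libraries, against 12.4, 13.9 and 11.2 FPKM in the wild type libraries. Over the 13 listed as lower, the sum was 18.3, 27.4 and 14.7 FPKM in the knockdown, against 49.2, 43.1 and 56.2 FPKM in wild type. The sum over all 117 was 169.6 ± 0.877 FPKM in the knockdown and 62.0 ± 5.22 FPKM in wild type (SD, n = 3 each). The small SD of this total in the knockdown came from opposite differences that cancelled. Replicate 2 had the lowest knockdown sum of the genes listed as higher (SD 7.18 FPKM, n = 3). It also had the highest knockdown sum of those listed as lower (SD 6.51 FPKM, n = 3). Few genes carried most of the sum of the genes listed as higher: the 10 of highest knockdown mean held 59.3%, 62.3% and 61.0% of it in the knockdown libraries.

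**Figure D1:**
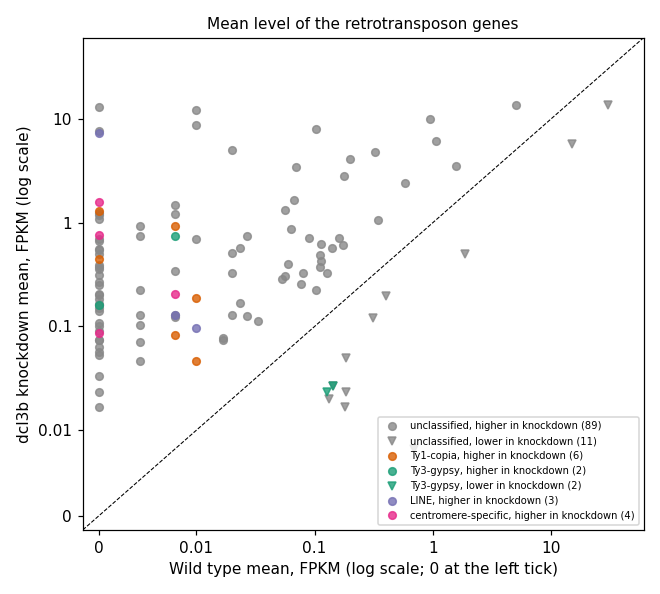
Mean FPKM of each of the 117 retrotransposon genes in the dcl3b knockdown (vertical axis) and in wild type (horizontal axis), both on log scales with values of 0 at the lowest tick; n = 3 libraries per genotype, and the dashed line marks equal levels. The 104 genes listed as higher (circles) lie above the line, 41 of them at 0 in wild type, and the 13 listed as lower (triangles) lie below it.

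All 3 knockdown values lay above all 3 wild type values in 101 of the 117 genes, beside 46.4% of all listed genes, and below them in 12, beside 40.2% of all listed genes. These shares follow mostly from the direction of listing. Within the higher list, values lay above in 97.1% of retrotransposon genes, beside 84.6% of all genes, 100% of DNA transposon genes and 93.9% of undescribed genes. Within the lower list, values lay below in 92.3% of retrotransposon genes, beside 89.1% of all genes. The 4 genes whose libraries overlapped were LOC_Os06g05230, LOC_Os11g16248 and LOC_Os11g43230 among those listed as higher and LOC_Os02g01840 among those listed as lower. LOC_Os06g05230, an unclassified element named here after its values were seen, measured 0.52, 1.12 and 0 FPKM in the knockdown and 0 in each wild type library. An exact permutation test of 3 against 3 libraries cannot go below p = 0.10 for a single gene. A limma re-test of the listed genes, made to compare settings only, called 97 of the members higher, beside 49.4% of all listed genes, and 13 lower, beside 43.7% of all listed genes. Within the higher list these were 97 of 104 retrotransposon genes, beside 580 of all 644 genes.

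By subclass, the description named Ty1-copia in 6 genes, Ty3-gypsy in 4, LINE in 3 and a centromere-specific element in 4, and left 100 unclassified. All 6 Ty1-copia genes, all 3 LINE genes and all 4 centromere-specific genes were listed as higher, the Ty3-gypsy genes were split into 2 higher and 2 lower, and the unclassified genes into 89 higher and 11 lower. The description left out the word expressed in 5 of the 117, among them LOC_Os07g38200, LOC_Os01g18760 and LOC_Os01g18770, whose knockdown levels are given below.

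The Ty1-copia genes ranged in knockdown mean from 0.0467 to 1.30 FPKM, and none exceeded 0.01 FPKM in wild type mean. The most abundant, LOC_Os01g67690, was at 1.89, 0.55 and 1.46 FPKM in the knockdown and 0 in each wild type library. LOC_Os01g63960 was at 1.29, 0.57 and 0.91 FPKM in the knockdown, against 0, 0.01 and 0.01 FPKM in wild type. The authors' deposited table gives it a log2 fold change of 6.69 (adjusted p = 1.23e-24). In both genes every knockdown library lay above every wild type library, and replicate 2 had the lowest knockdown value.

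LOC_Os02g33340 was at 0.50, 0.16 and 0.67 FPKM in the knockdown and was listed at 0 in wild type. LOC_Os03g37650 was at 0.28, 0.13 and 0.15 FPKM in the knockdown, against 0, 0.01 and 0.02 FPKM in wild type (log2 fold change 4.08, adjusted p = 3.08e-07, the authors' deposited table). The groups did not overlap in either gene. The last pair of Ty1-copia genes was close to the rounding limit of the files. LOC_Os11g43230 was at 0.11, 0.02 and 0.12 FPKM in the knockdown, against 0, 0.02 and 0 FPKM in wild type, so that knockdown replicate 2 equalled wild type replicate 2. LOC_Os05g09736 was at 0.05, 0.03 and 0.06 FPKM in the knockdown, against 0.01 FPKM in each wild type library, with an adjusted p of 0.0486 in the authors' deposited table, the largest of all 117. In the limma re-test both were called with all libraries. Each lost its call when any library but knockdown replicate 2 was left out, LOC_Os11g43230 with limma adjusted p = 0.0612 to 0.11 and LOC_Os05g09736 with 0.0589 to 0.109. Leaving out a wild type library kept the log2 difference of LOC_Os05g09736 at 0.0998, so there the call was lost with fewer libraries and not with a smaller difference. LOC_Os05g09736 also lost its call with a pseudocount of 1 in place of 0.5 (limma adjusted p = 0.0575).

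Replicate 2 had the lowest knockdown value in all 6 Ty1-copia genes. Their summed level was 4.12, 1.46 and 3.37 FPKM in knockdown replicates 1, 2 and 3, against 0.01, 0.05 and 0.04 FPKM in wild type. Among the 3 knockdown libraries, replicate 2 also had the highest sum of the 10 anther genes, 1174 FPKM. The part of this in the Ty1-copia levels was not tested. Among all 104 retrotransposon genes listed as higher, knockdown replicate 2 was the lowest in 46 (44.2%), replicate 1 in 28 and replicate 3 in 22, and 8 were tied. Among the 540 other genes listed as higher, replicate 2 was the lowest in 341 (63.1%). A lower value in that library is therefore found in many listed genes outside the retrotransposons.

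**Figure D2:**
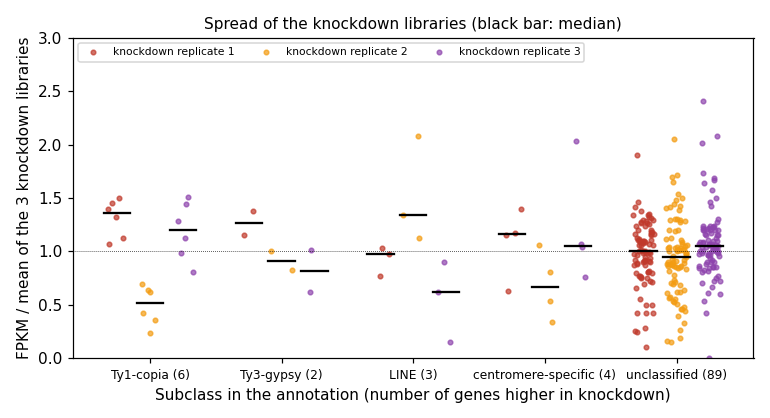
FPKM of each knockdown library divided by the mean of the 3 knockdown libraries of the same gene, for the 104 retrotransposon genes listed as higher, by subclass; each point is a gene in a library and black bars are medians. Knockdown replicate 2 had a median of 0.52 in the 6 Ty1-copia genes and of 0.952 in the 89 unclassified genes, and 1.34 in the 3 LINE genes.

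The Ty3-gypsy genes went in both directions. LOC_Os03g50670 was at 0.86, 0.62 and 0.76 FPKM in the knockdown, against 0, 0.01 and 0.01 FPKM in wild type, for which the authors' deposited table gives a log2 fold change of 6.80 (adjusted p = 3.53e-46). LOC_Os03g32770 was at 0.22, 0.16 and 0.10 FPKM in the knockdown and was listed at 0 in wild type. Both were clear of the wild type values. Conversely, LOC_Os05g43350 was at 0.07, 0 and 0.01 FPKM in the knockdown, against 0.16, 0.13 and 0.14 FPKM in wild type (log2 fold change -2.22, adjusted p = 0.00453, the authors' deposited table). LOC_Os06g07390 was at 0.03, 0.04 and 0 FPKM in the knockdown, against 0.14, 0.17 and 0.07 FPKM in wild type (log2 fold change -2.31, adjusted p = 0.00482, the authors' deposited table). All knockdown values of the pair that fell lay below all wild type values, at levels near the rounding limit. In the limma re-test LOC_Os06g07390 lost its call without knockdown replicate 3 (adjusted p = 0.0501) or wild type replicate 1 (adjusted p = 0.0502).

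The LINE genes were unequal in level. LOC_Os04g13000 was at 7.09, 8.19 and 6.59 FPKM in the knockdown and 0 in each wild type library. LOC_Os08g07900 was at 0.10, 0.13 and 0.06 FPKM in the knockdown, against 0, 0.03 and 0 FPKM in wild type, for which the authors' deposited table gives a log2 fold change of 2.95 (adjusted p = 0.00142). LOC_Os11g16248 was at 0.10, 0.27 and 0.02 FPKM in the knockdown, against 0, 0.02 and 0 FPKM in wild type. Its lowest knockdown value equalled its highest wild type value, and the limma re-test did not call it (adjusted p = 0.0705, or 0.0253 without knockdown replicate 3), while the authors' deposited table gave it an adjusted p of 0.0244. All 3 LINE genes had their highest knockdown value in replicate 2 and their lowest in replicate 3, an order unlike that of the Ty1-copia genes; the difference in order was not tested.

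Centromere-specific retrotransposons, which sit in the centromeres of cereal chromosomes, were described in 4 genes, a class named here after the values were seen. LOC_Os07g38200 was at 1.85, 1.67 and 1.20 FPKM in the knockdown, LOC_Os01g62140 at 1.05, 0.40 and 0.80 FPKM, and LOC_Os06g19350 at 0.10, 0.07 and 0.09 FPKM. These 3 genes were listed at 0 throughout wild type. LOC_Os08g22690 was at 0.13, 0.07 and 0.42 FPKM in the knockdown, against 0, 0.02 and 0 FPKM in wild type. None of the 4 overlapped between genotypes, as in 97.1% of retrotransposon genes and 84.6% of all genes in the higher list. The largest adjusted p among them in the authors' deposited table was 7.77e-04, from the same test that had listed them.

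**Figure D3:**
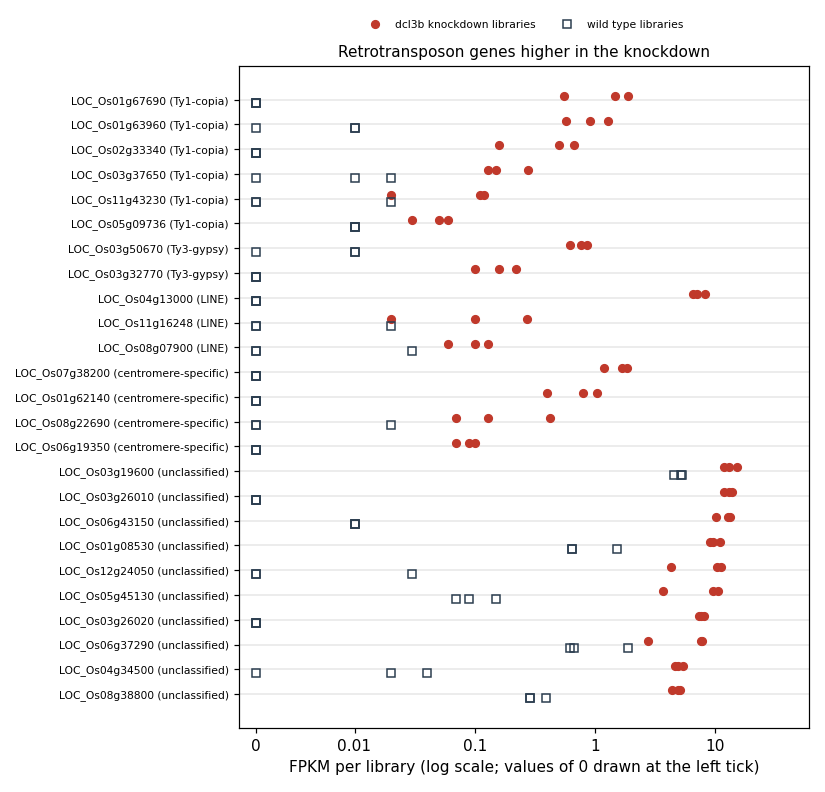
FPKM of each library on a log scale, with values of 0 at the leftmost tick, for the 15 genes listed as higher with a named subclass and the 10 unclassified genes with the highest knockdown mean; filled circles are the 3 dcl3b knockdown libraries and open squares the 3 wild type libraries. The unclassified genes reach 13.4 FPKM in knockdown mean, and circles and squares coincide in LOC_Os11g43230 and LOC_Os11g16248 at 0.02 FPKM.

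Among the 89 unclassified genes listed as higher, the 10 with the highest knockdown mean included genes at or near 0 in wild type and genes already transcribed there. LOC_Os03g26010 was at 13.8, 13.1 and 11.9 FPKM in the knockdown and LOC_Os03g26020, the next locus number, at 7.64, 7.31 and 8.08 FPKM, and both were listed at 0 in wild type. LOC_Os06g43150 was at 13.2, 10.3 and 12.8 FPKM in the knockdown, against 0.01 FPKM in each wild type library, the smallest adjusted p of the 117 in the authors' deposited table (7.12e-213, log2 fold change 10.06). LOC_Os04g34500 was at 4.89, 5.45 and 4.69 FPKM in the knockdown, against 0.02, 0.04 and 0 FPKM in wild type. In these 4 genes the knockdown libraries lay close together and far from wild type.

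LOC_Os12g24050 was at 4.33, 11.2 and 10.5 FPKM in the knockdown, against 0, 0.03 and 0 FPKM in wild type, with replicate 1 the low library. LOC_Os05g45130 was at 10.7, 3.66 and 9.60 FPKM in the knockdown, against 0.07, 0.15 and 0.09 FPKM in wild type. LOC_Os06g37290 was at 7.66, 2.78 and 7.73 FPKM in the knockdown, against 0.67, 1.87 and 0.62 FPKM in wild type. In LOC_Os05g45130 and LOC_Os06g37290 replicate 2 had the lowest knockdown value and the highest wild type value, and it stood nearest to the other genotype on both sides, although the groups did not overlap.

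Other abundant genes were already transcribed in wild type. Among them, LOC_Os12g03840 and LOC_Os11g44750 were named for their wild type level and lay outside the 10 of highest knockdown mean. LOC_Os03g19600 averaged 13.4 ± 1.63 FPKM in the knockdown and 5.01 ± 0.371 FPKM in wild type (SD, n = 3 each; the authors' deposited table has log2 fold change 1.42 and adjusted p = 8.08e-17). LOC_Os12g03840 was at 3.92, 2.55 and 4.02 FPKM in the knockdown, against 1.97, 1.68 and 1.0 FPKM in wild type (log2 fold change 1.17, adjusted p = 0.00345, the authors' deposited table). Its call in the limma re-test was lost without knockdown replicate 1 or 3, with adjusted p = 0.0549 and 0.054. LOC_Os01g08530 averaged 9.88 ± 0.983 FPKM in the knockdown and 0.940 ± 0.511 FPKM in wild type (SD, n = 3 each). LOC_Os11g44750 averaged 2.39 ± 0.607 FPKM in the knockdown and 0.577 ± 0.0569 FPKM in wild type, and LOC_Os08g38800 averaged 4.79 ± 0.354 FPKM in the knockdown and 0.323 ± 0.0577 FPKM in wild type (SD, n = 3 each). Every knockdown library lay above every wild type library in these 5 genes.

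Read against the wild type level, 41 of the 104 genes listed as higher (39.4%) had a listed level of 0 throughout wild type, beside 92 of the 540 other genes listed as higher (17.0%). Among those others, 16 of 33 DNA transposon genes (48.5%) and 55 of 179 genes with no described function (30.7%) were also at 0 there. A further 44 (42.3%) had a wild type mean above 0 and under 0.1 FPKM, beside 25.7% of the others. Another 16 lay from 0.1 to under 1 FPKM, and 3 at 1 FPKM or more. A low start did not go with 1 common level in the knockdown: the 41 genes listed at 0 in wild type ranged there from 0.0167 to 12.9 FPKM in mean, with a median of 0.25 FPKM, and the 44 next lowest from 0.0467 to 12.1 FPKM, with a median of 0.315 FPKM. Where both genotypes were above 0, the authors' deposited table gave median log2 fold changes of 4.15 over the 44 genes, 2.05 over the 16 genes and 1.42 over the 3 genes. The wild type level enters the fold itself, so that order is no separate result.

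Low levels were common even in the knockdown, where 59 of the 104 had a mean under 0.5 FPKM and 26 a mean of 1 FPKM or more. The least abundant, LOC_Os11g44014, was at 0.02, 0.02 and 0.01 FPKM in the knockdown and was listed at 0 in wild type. The spread between knockdown libraries was wide. The coefficient of variation (SD over mean) had a median of 33.2%, 16.6% over the 26 genes at 1 FPKM or more and 36.3% over the 78 below. It was under 15% in 26 genes and over 60% in 14. At the tight end LOC_Os06g49350 was at 3.41, 3.36 and 3.43 FPKM in the knockdown, against 0.04, 0.08 and 0.09 FPKM in wild type. At the wide end LOC_Os10g32150 was at 0.07, 0.09 and 0.65 FPKM in the knockdown and was listed at 0 in wild type, so that 1 library held most of its signal. The choice of these 3 genes followed their values.

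The 13 genes that fell were 11 unclassified and 2 Ty3-gypsy genes, and they were above 0 in every wild type library. A gene needs signal in wild type to be called lower, and 0 of all 530 genes listed as lower were at 0 throughout wild type. LOC_Os07g23660 and LOC_Os11g45290 held 88.5% to 92.6% of the summed level of the 13 in the wild type libraries. LOC_Os07g23660, the most abundant of all 117 in wild type, was at 11.9, 20.3 and 8.32 FPKM in the knockdown, against 30.0, 24.8 and 35.4 FPKM in wild type (log2 fold change -1.15, adjusted p = 2.82e-04, the authors' deposited table). Replicate 2 had the highest knockdown value and the lowest wild type value; the anther genes summed to 1174 FPKM in that knockdown library, and their part in the result was not tested. Its call in the limma re-test was lost without knockdown replicate 1 or 3 or wild type replicate 1 or 3, with adjusted p = 0.0554 to 0.0619. LOC_Os11g45290 averaged 5.65 ± 0.399 FPKM in the knockdown and 15.1 ± 1.60 FPKM in wild type (SD, n = 3 each; log2 fold change -1.41, adjusted p = 3.04e-18, the authors' deposited table).

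The deepest fall was in LOC_Os04g18400, at 0.02, 0 and 0 FPKM in the knockdown, against 0.68, 0.63 and 0.78 FPKM in wild type. At -6.30 in the authors' deposited table, its log2 fold change was the most negative of the 528 genes listed as lower with signal in both genotypes (adjusted p = 9.61e-36). LOC_Os04g28820 was at 0.53, 0.46 and 0.49 FPKM in the knockdown, against 1.64, 2.33 and 1.61 FPKM in wild type. LOC_Os08g10244 was at 0.12, 0.13 and 0.11 FPKM in the knockdown, against 0.31, 0.34 and 0.29 FPKM in wild type. The genotypes did not overlap in any of these 3 genes.

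LOC_Os10g02600, LOC_Os10g26960, LOC_Os05g43340 and LOC_Os05g16570 had knockdown means from 0.0167 to 0.0267 FPKM and wild type means from 0.133 to 0.183 FPKM, with at least 1 knockdown library listed at 0 in each. LOC_Os09g37320 was at 0.12, 0.24 and 0.23 FPKM in the knockdown, against 0.30, 0.41 and 0.50 FPKM in wild type, which is the smallest change of the 117 by the authors' deposited table, at a log2 fold change of -1.05. The smallest increase was that of LOC_Os12g36590, at 0.26, 0.19 and 0.22 FPKM in the knockdown, against 0.10, 0.13 and 0.08 FPKM in wild type (log2 fold change 1.14, adjusted p = 0.0127, the authors' deposited table). Both stood just inside the limit of the authors' lists, at which no gene had an absolute log2 fold change under 1; genes just outside it were not analysed here. LOC_Os02g01840 was at 0.02, 0.01 and 0.12 FPKM in the knockdown, against 0.27, 0.18 and 0.10 FPKM in wild type, so that the groups overlapped.

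Several of these calls were lost in the limma re-test when 1 library was left out, which also leaves fewer libraries to the fit. Without wild type replicate 2 the log2 difference of LOC_Os02g01840 stayed at -0.311, while its limma adjusted p went from 0.0383 to 0.0781. A lost call therefore need not come from the values of the library left out. LOC_Os02g01840 lost its call without replicate 1 or 2 of either genotype, with adjusted p = 0.0781 to 0.119. LOC_Os05g16570 lost its call without knockdown replicate 1 or 3 (adjusted p = 0.0587 and 0.0791). LOC_Os09g37320 lost its call without knockdown replicate 1 or 3 or wild type replicate 2 or 3, with adjusted p = 0.0513 to 0.083, and LOC_Os12g36590 without wild type replicate 3 (adjusted p = 0.0559).

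**Figure D4:**
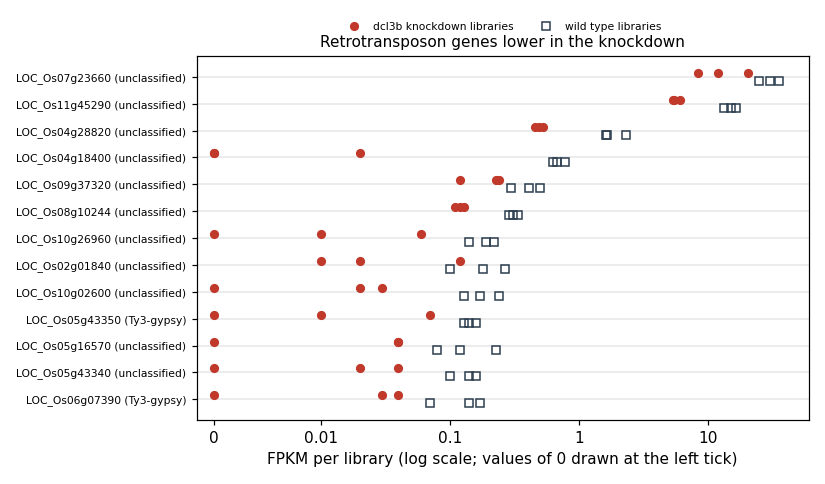
FPKM of each library on a log scale, with values of 0 at the leftmost tick, for the 13 retrotransposon genes listed as lower, ordered by wild type mean; filled circles are the 3 dcl3b knockdown libraries and open squares the 3 wild type libraries. Circles lie left of squares in 12 genes, and overlap with them in LOC_Os02g01840.

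The loci were spread over all 12 chromosomes, read from the locus IDs, with 14 genes listed as higher on chromosome 1, 13 each on chromosomes 3 and 4, 12 on chromosome 11, 11 on chromosome 6 and 3 on chromosome 2. As a share of all genes listed as higher on the same chromosome, they made up 22.2% on chromosome 11 and 21.7% on chromosome 3, against 5.66% on chromosome 2. Over all chromosomes the share was 16.1%. The genes that fell lay on 9 chromosomes, with at most 3 on any of them, the 3 being on chromosome 5. On chromosome 10, which also carries OsDCL3b, 7 rose and 2 fell, and the locus nearest in number to OsDCL3b, LOC_Os10g34290, was at 0.57, 0.58 and 0.57 FPKM in the knockdown, against 0.02, 0.05 and 0 FPKM in wild type. It was named after its values were seen.

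**Figure D5:**
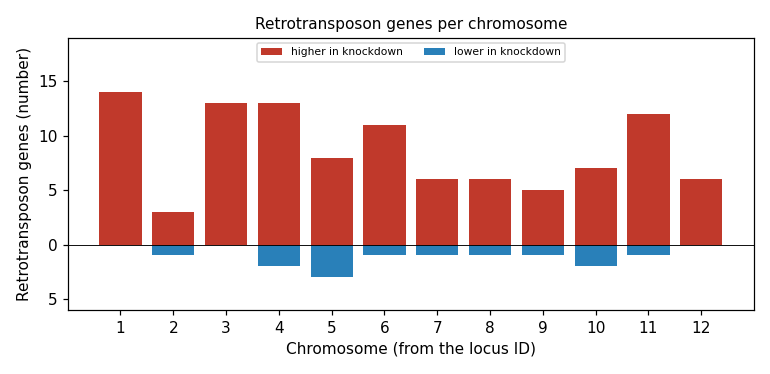
Number of retrotransposon genes per chromosome, with those listed as higher in the dcl3b knockdown above the line and those listed as lower below it. Chromosome 1 holds the most genes listed as higher (14) and chromosome 2 the fewest (3).

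Some of the loci adjoin each other. With locus numbers at most 10 apart, which in this numbering are usually next neighbours, 10 of the 117 (8.55%) formed 5 pairs, no run was longer, and both genes of each pair were listed in the same direction. Among all listed genes, 73 of 89 such pairs (82.0%) shared a direction, so that neighbours listed alike are common in these tables. Genes of these pairs were named after their values were seen, apart from those that the subclass, the level or the direction had already named.

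LOC_Os03g26010 and LOC_Os03g26020 formed the most abundant pair. LOC_Os01g18760 was at 0.73, 0.68 and 0.56 FPKM in the knockdown and LOC_Os01g18770 at 0.82, 1.52 and 0.88 FPKM, and the next locus, LOC_Os01g18780, with a fibroin heavy chain description, at 0.64, 1.11 and 0.63 FPKM. All 3 were listed at 0 in wild type, and replicate 2 was highest in LOC_Os01g18770 and LOC_Os01g18780. LOC_Os03g09990 was at 0.04, 0.66 and 0.47 FPKM in the knockdown and LOC_Os03g10000 at 0.05, 0.33 and 0.22 FPKM, both listed at 0 in wild type. In this pair replicate 1 was the low library of both genes. LOC_Os11g36860 was at 0.18, 0.16 and 0.41 FPKM and LOC_Os11g36870 at 0.19, 0.20 and 0.22 FPKM in the knockdown, both listed at 0 in wild type. The 1 pair that fell was LOC_Os05g43340, at 0.04, 0 and 0.02 FPKM in the knockdown against 0.14, 0.16 and 0.10 FPKM in wild type, and its Ty3-gypsy neighbour LOC_Os05g43350.

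With locus numbers up to 50 apart, 22 genes formed 11 pairs, and 10 of the 11 shared a direction, beside 190 of 247 pairs (76.9%) over all listed genes. A listed neighbour of any kind stood within that distance of 47 of the 117 (40.2%), beside 372 of all 1174 listed genes (31.7%). The exception among the 11 pairs was on chromosome 6, where the Ty3-gypsy gene LOC_Os06g07390 fell and LOC_Os06g07420, 30 numbers on, was at 0.60, 0.79 and 0.83 FPKM in the knockdown, against 0, 0.08 and 0 FPKM in wild type.

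Listed genes of other kinds also stood next to retrotransposon genes, in 12 pairs with locus numbers at most 10 apart, of which 10 shared a direction. LOC_Os04g34490, described as a nodulin, was at 4.41, 4.98 and 4.82 FPKM in the knockdown, against 0.42, 0.14 and 0.29 FPKM in wild type, levels close to those of its neighbour LOC_Os04g34500 in the knockdown. The hypothetical protein gene LOC_Os07g01960 had 1.13, 2.29 and 1.58 FPKM in the knockdown libraries, and LOC_Os07g01970 beside it 0.50, 1.66 and 1.39 FPKM, both listed at 0 in wild type. Around the centromere-specific gene LOC_Os06g19350, both flanking loci were listed as higher: LOC_Os06g19360, described as a cadmium tolerance factor, was at 2.20, 1.54 and 2.06 FPKM in the knockdown, against 0.02, 0 and 0 FPKM in wild type. The pairs that disagreed were on chromosome 3. LOC_Os03g19600 rose beside the pectinesterase gene LOC_Os03g19610, which was at 0.04, 0.06 and 0.10 FPKM in the knockdown, against 0.26, 0.21 and 0.35 FPKM in wild type. LOC_Os03g56990 was at 1.59, 0.54 and 1.5 FPKM in the knockdown, against 0, 0 and 0.02 FPKM in wild type, beside the topoisomerase gene LOC_Os03g57000 at 0.32, 0.71 and 0.42 FPKM in the knockdown, against 1.09, 1.37 and 1.56 FPKM in wild type.

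Small RNA gave a readout that the gene lists had not used. The authors listed 11 windows of 500 bases for 21-nt and 113 for 24-nt siRNA, in RPTM (reads per 10000000 library reads, as the name is taken here), from 1 library of each genotype with 7358371 reads in the knockdown and 8037512 in wild type, as the steps of the values give. No listed window named any of the 117 genes (0 of 11 for 21-nt and 0 of 113 for 24-nt), and few named any of the 1174 listed genes (1 of 11 and 7 of 113). Windows outside the lists were not analysed here, so this says nothing of the siRNA over these genes. Other retrotransposon genes, absent from the mRNA lists, were named by 2 windows of 21-nt and 15 windows of 24-nt siRNA. With 1 library per genotype there is no test between genotypes, and the intervals (exact Clopper-Pearson, 95%) cover counting error only. In the window of the targeted gene LOC_Os10g34430, 21-nt siRNA was at 17550 RPTM in the knockdown, against 6.22 RPTM in wild type. The 24-nt siRNA of that gene was at 7417 RPTM in the knockdown, against 4.98 RPTM in wild type. The source of this siRNA was not tested.

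Both 21-nt windows were lower in the knockdown, as were 10 of all 11, and lay in Ty1-copia genes on chromosome 6. The window in LOC_Os06g41190 (chr6:24650500-24650999, in the coordinates of the files; the sources used here do not name their build) had 0 reads in the knockdown, which allows up to 3 reads or 4.08 RPTM, against 103 reads or 128 RPTM in wild type. The window in LOC_Os06g41200 had 1 read in the knockdown, against 94 in wild type (ratio 0.0116, interval 2.91e-04 to 0.0663).

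Of the 15 windows of 24-nt siRNA, 9 were lower and 6 higher in the knockdown, beside 87 lower and 26 higher among all 113. LOC_Os10g21070 had 1.36 RPTM in the knockdown, against 173 RPTM in wild type (ratio 0.00786, interval 1.98e-04 to 0.0445), in a window that also names a cytochrome P450 gene. The Ty3-gypsy gene LOC_Os04g30620 had 1.36 RPTM in the knockdown, against 117 RPTM in wild type. Among those that were higher, 2 windows named LOC_Os07g13190. One had 135 RPTM in the knockdown, against 3.73 RPTM in wild type (ratio 36.1, interval 12 to 178), and the other 124 RPTM in the knockdown, against 12.4 RPTM in wild type. The LINE gene LOC_Os05g23140 had 228 RPTM in the knockdown, against 43.6 RPTM in wild type (ratio 5.24, interval 3.63 to 7.78). Retrotransposon genes thus had listed 24-nt windows in both directions. The closest of these genes to one of the 117 by locus number was LOC_Os05g31200, 130 numbers from LOC_Os05g31070. Its 24-nt window had 1.36 RPTM in the knockdown against 107 RPTM in wild type. LOC_Os05g31070 had 1.59, 1.08 and 1.02 FPKM of mRNA in the knockdown and was listed at 0 in wild type. The next closest, LOC_Os04g28440, was 380 numbers from LOC_Os04g28820. Its 24-nt window was also lower, at 17.7 RPTM in the knockdown against 102 RPTM in wild type. The mRNA of LOC_Os04g28820 averaged 0.493 FPKM in the knockdown and 1.86 FPKM in wild type. In both cases the window and the mRNA belong to different genes, and a link between them was not tested.

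Copies of a retrotransposon resemble each other, so a read can match several loci, and the sources used here do not say how such reads were counted. The level of a single locus is uncertain to that extent.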

How the data were processed

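Young panicle mRNA (3 dcl3b knockdown and 3 wild type libraries, stranded kit per the labels' protocols) and small RNA (1 library each) were analysed. The submitters' processing notes name Bowtie 1.1.2, TopHat2 2.1.0 and edgeR; the sources used here do not give their steps, the build, the annotation or the handling of multiply matched reads. The authors deposited FPKM values rounded to 2 decimals, with log2 fold changes of knockdown over wild type, p-values and adjusted p-values (FDR), for listed genes only. The base of the fold change was checked: over 369 genes above 1 FPKM in both genotypes it differed from the log2 ratio of means by at most 0.0326. Small RNA windows hold a deposited signal in RPTM, a fold ratio and p-values; those ratios and p-values were left aside because a genotype had 1 library. All 100 nonzero knockdown and 121 nonzero wild type signals were whole multiples of 1 step within 0.01 RPTM, from which reads were taken.

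Members were found by description. The members and lists were chosen with earlier results of these data known. The re-test used limma 3.58.1 (R 4.3.3) and took log2(FPKM + 0.5) of all 1174 genes, unfiltered, with p-values adjusted by Benjamini-Hochberg; differences on this scale come out too small for low genes. It was tested on simulated data and served only to compare settings, since the genes had been selected on the same values. Alternatives were pseudocounts of 0.1 and 1, the lowest 25% by mean left out, a replicate block, each library left out, and replicate 2 of both genotypes left out (chosen after seeing the data). Same-numbered libraries did not deviate together, so the replicate numbers were not taken as pairs.

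Genes were named by rule: every member with a Ty1-copia, Ty3-gypsy or LINE description, every member listed as lower, the 10 unclassified members of highest knockdown mean and the 5 of highest wild type mean among those listed as higher, the 2 with the smallest absolute fold change, members of a run of 3 or more neighbours, and members that a window names (the last had none). The locus IDs matched no entry of the gene table at hand (0 of 117), so no coordinates or sequences of the genes are given.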

Additional observations from a re-analysis of the deposited data

How the results depend on the processing

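The 37 genes named by rule kept their direction with pseudocounts of 0.1 and 1, with a replicate block and without each library in turn; other settings and other genes were not run singly. In the limma re-test 97 members were higher and 13 lower in the knockdown. Leaving out the lowest 25% of genes by mean gave 44 and 5, a setting that takes members of low level out of the fit. How many members stayed in that fit was not counted, so the drop is no measure of failed calls. Leaving out a library gave 81 to 96 higher and 9 to 12 lower, and leaving out replicate 2 of both genotypes gave 91 and 11. A replicate block gave 89 and 11, and 4 of the 37 genes named by rule lost their call under it. Same-numbered libraries had correlations of -0.043, -0.53 and -0.43 in their deviations over the listed genes. None was positive, so the numbers were not taken as pairs. Whether same-numbered libraries were prepared together was not tested. In the authors' lists, 8 of the 13 genes that fell and 93 of the 104 that rose passed an absolute log2 fold change of 2. An adjusted p of 0.01 was passed by 10 and 87, and 4 and 45 had a mean of at least 0.5 FPKM in the higher genotype. Counts under these alternative settings were not made over all listed genes. They therefore compare settings only and show nothing particular to the retrotransposon genes.

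The count of members with all knockdown values above wild type (101) ran from 101 to 103 without a library, and that below (12) from 12 to 13. The median log2 difference of the 104 genes listed as higher was 0.674 with a pseudocount of 0.5 (0.929 over all 644 genes listed as higher), 1.57 with 0.1 and 0.402 with 1, as the pseudocount sets the scale of low genes; without a library it ran from 0.655 to 0.704. Members with a neighbouring member numbered 10 within 10 locus numbers, 22 within 50 and 22 within 100. The unknown depth and the 2-decimal rounding limit values near 0.01 FPKM.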
